A study of Mus musculus with 2 samples.

Results

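The chitinases and chitinase-like genes of the mouse were examined in RNA of parietal cells, which secrete the acid of the stomach. The set held 7 genes, taken by symbol from the deposited tables: Chia1, Chit1, Ctbs, Chid1, Chil1, Chil3 and Chil4. All 7 were found among the 38087 Ensembl gene identifiers of each table. They were chosen by name, with the RPKM and the HFD-to-control ratios of these same libraries known, so their levels and ratios are a description and carry no test. The cells were sorted from the stomach of C57BL/6 mice on a high fat diet (HFD) or on a control diet, and 1 library was sequenced per diet. No source used here gives the age of the mice, the length of the diet, how many mice were pooled or how the cells were marked for sorting. With 1 library per diet there was no replicate spread, so every difference below is between these 2 libraries. Chil5, Chil6 and Ovgp1, 3 further mouse genes of the same enzyme family or name, are given beside the 7.

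Values are RPKM, reads per kilobase of gene per M reads, and a gene at or below 1 RPKM is listed at 0. The values' spacing implied a depth of 25.5 M reads in HFD and 9.84 M in control. Levels carry exact Poisson 95% intervals, and ratios exact conditional binomial 95% intervals, from read numbers estimated with the exon length and the depth. They hold counting error and no variation between animals. A listed 0 need not mean an unused gene, since 8 of 71 ribosomal protein genes were listed at 0 in HFD cells and 0 of 71 in control cells. All 5 parietal markers (Atp4a, Atp4b, Kcnq1, Hrh2 and Slc26a7) were listed in both libraries. The chief cell gene Pgc stood above all of them in both.

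Chitin is a polymer of N-acetylglucosamine found in fungal walls, arthropod cuticles and worm eggs, and it reaches the stomach with food and parasites. Mammalian chitinases are secreted glycoside hydrolases that cut it. Chia1 encodes acidic mammalian chitinase, which works at gastric pH and is made in the mouse stomach mainly by chief cells, the pepsinogen-secreting cells at the gland base. Chit1 encodes chitotriosidase, a second active chitinase, known in humans as a product of macrophages. Ctbs encodes the lysosomal chitobiase that trims the N-acetylglucosamine end of N-linked glycans. Chil1, Chil3 and Chil4 encode secreted chitinase-like lectins, which bind sugar polymers without cutting them and are known from macrophages, neutrophils and epithelia in type 2 inflammation. Chid1 encodes a chitinase-domain protein whose human counterpart binds the scavenger receptor stabilin.

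The difference between enzyme and lectin is visible in a stretch of 8 codons in the coding sequences of the GENCODE transcripts. In the secreted chitinases the stretch encodes 3 aspartates and ends in the glutamate that donates the proton in catalysis. It is shown for the genes whose levels are described below, 5′ to 3′ on the coding strand, with the last codon in capitals.
Chia1: gatggactggacctggactggGAA
Chit1: gatggccttgaccttgactggGAG
Ctbs: gatgggattaatatagacataGAG
Chil1: gatgggctggatctcgcctggCTC
Chil3: gatggcctcaacctggactggCAG
Chil4: gatggcctcaacctggactggCAG
Chil5: gatggactgaacctggactggCAG
The last codon encodes glutamate in Chia1, Chit1 and Ctbs, glutamine in Chil3, Chil4 and Chil5, and leucine in Chil1. The full pattern of 3 aspartates and a glutamate was found in Chia1 and Chit1 and in none of the other 8 coding sequences searched. In Ctbs 2 of the 3 aspartates were present, and the stretch of Chid1 could not be aligned. Chil3 and Chil4 carry the same 24 bases. The Chia1 stretch lies in exon 5 on the plus strand at chr3:106122448-106122471 and that of Chil4 in exon 5 on the minus strand at chr3:106210533-106210556 (GRCm38, the assembly also called mm10).

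Chia1 dominated the family in both libraries, and no other member came near it. The summed level of the 7 genes was 2553 RPKM in HFD cells and 3968 RPKM in control cells, of which Chia1 made up 99.2% and 99.8%. Without Chia1 the sums were 21.0 RPKM in HFD cells and 9.19 RPKM in control cells. In the HFD library 4 members were listed, in the order Chia1, Chil4, Chid1 and Chit1. In the control library 3 were listed, in the order Chia1, Chid1 and Ctbs. Chil1 and Chil3 were listed at 0 in both libraries. The other family genes Chil6 and Ovgp1 were likewise listed at 0 in both, and Chil5 was low in both.

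**Figure D1:**
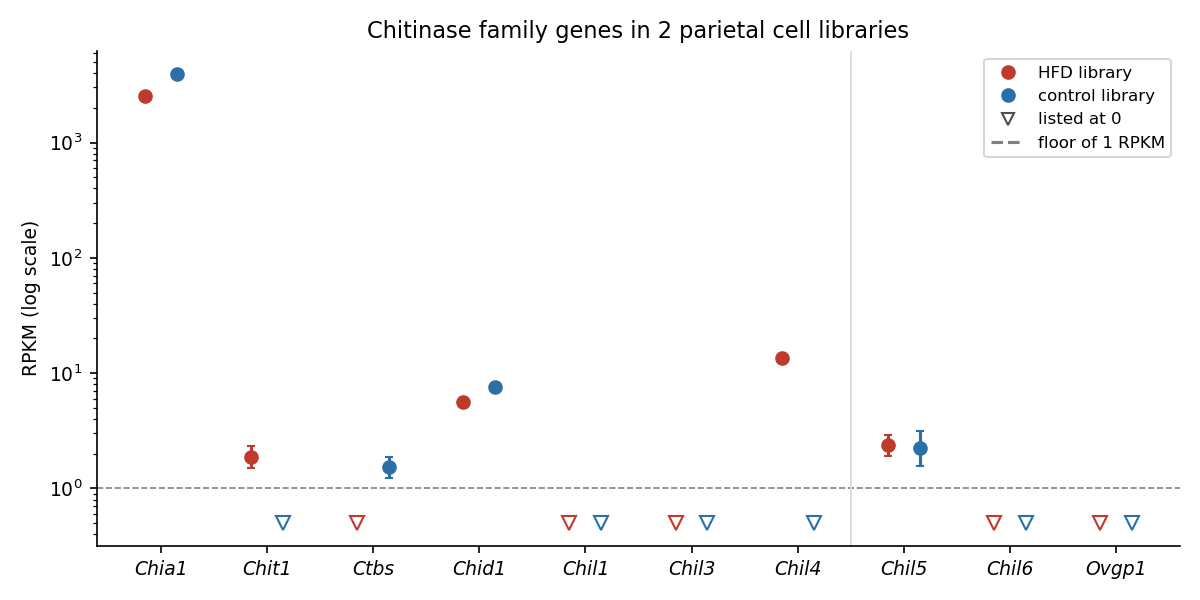
RPKM on a log axis of the 7 genes and, right of the grey line, of Chil5, Chil6 and Ovgp1, in HFD cells (red, left point) and control cells (blue, right point); bars are Poisson 95% intervals, the dashed line is the floor of 1 RPKM and open triangles below it mark genes listed at 0. Chia1 stands at 2532 and 3959 RPKM, and every other point lies at or below 13.5 RPKM.

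On the log2(RPKM + 1) scale, 2 of the 5 members with a level in at least 1 library were over 2-fold higher in HFD cells (Chil4 and Chit1) and 1 was over 2-fold lower (Ctbs). The background over the 16037 genes with a value in at least 1 library was 12.5% higher and 23.9% lower by that rule. All 3 of these members were listed at 0 in the other library, where any level above 1 RPKM exceeds 2-fold on this scale. Of the 16037 genes, 6.19% were listed in HFD only, as were Chil4 and Chit1, and 16.2% in control only, as was Ctbs. The members had been chosen with this contrast known, so nothing is read from these shares. The median over the 5 was -0.38, against -0.13 over all 16037 genes. With the 20 most abundant genes left out of the scaling total, the numbers over all genes were 1102 higher and 5645 lower, and scaled to the total of protein-coding genes 2676 higher and 3369 lower, against 2000 higher and 3833 lower as deposited. These scalings moved the median of all genes to -0.63 and 0.12. They shift every plain log2 ratio by -0.61 and 0.29.

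Chia1 (ENSMUSG00000062778, chr3:106113229-106132120, plus strand, 11 exon blocks) stood at 2532 RPKM (2518 to 2546) in HFD cells and 3959 RPKM (3930 to 3987) in control cells. This rested on about 122855 and 74096 estimated reads. The gene ranked 10 among protein-coding genes in HFD cells and 9 in control cells, and held 0.874% and 1.12% of their summed RPKM. The ratio of HFD to control was 0.640 (0.634 to 0.646), so Chia1 was 1.56 times lower in HFD cells. Of the 9997 protein-coding genes listed in both libraries, 22.1% had a ratio below that of Chia1, 12.5% were over 2-fold lower and 7% over 2-fold higher. Chia1 was thus lower by less than 2-fold. With the 20 most abundant genes left out of the scaling total it was 2.38 times lower, and scaled to the total of protein-coding genes 1.28 times lower.

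**Figure D2:**
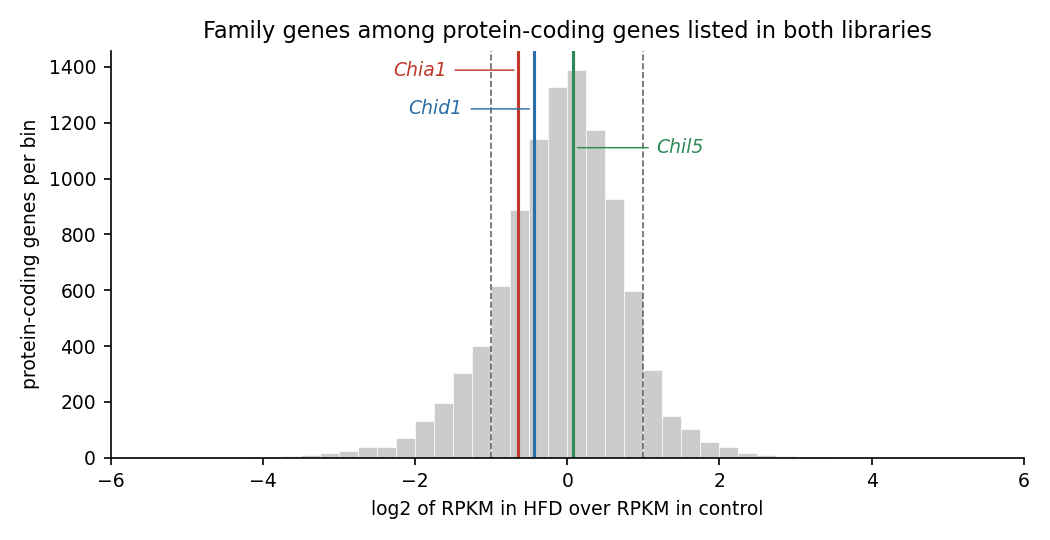
Number of protein-coding genes per bin of the log2 ratio of RPKM, HFD over control, for the 9997 such genes listed in both libraries; coloured lines mark Chia1, Chid1 and Chil5, and dashed lines mark 2-fold. Chia1 at -0.64 and Chid1 at -0.44 lie left of the centre and Chil5 at 0.08 near it, all inside 2-fold.

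Chia1 was read beside the genes of the cell that is known to make it. Of 5 chief cell markers in the tables, Pgc, Pga5, Gif and Bhlha15 were listed in both libraries and Lipf in neither, with a summed level of 46051 RPKM in HFD cells and 102874 RPKM in control cells. Pgc (pepsinogen C) stood at 45624 RPKM in HFD cells and 102292 RPKM in control cells, a ratio of 0.446, and Pga5 (another pepsinogen) at 20.1 and 79.4 RPKM, a ratio of 0.253. Gif, the intrinsic factor gene, stood at 397 RPKM in HFD cells and 494 RPKM in control cells, a ratio of 0.802. Bhlha15, a transcription factor of secretory cells, stood at 10.1 and 8.24 RPKM, a ratio of 1.22 that falls below 1 with the 20 most abundant genes left out of the scaling total. The ratio of Chia1, 0.640, thus lay between those of the pepsinogens and that of Gif. Relative to Pgc its level was 5.55% in HFD cells and 3.87% in control cells. Relative to Atp4a, the catalytic subunit of the proton pump, it was 50.7% in HFD cells and 91.6% in control cells. Markers of other gastric cells also differed. Their summed level was 33325.5 RPKM in HFD and 11840 in control for 4 pit cell genes and 1208 and 8266 for 4 endocrine genes. Of the pit cell genes 3 were higher in HFD and 1, Tff1, lower (ratio 0.986). Of the endocrine genes 3 were lower and 1, Gast, higher (ratio 1.16). Gast and the pit cell gene Muc5ac turned lower with the 20 most abundant genes left out of the scaling total. Tff1 turned higher when scaled to protein-coding genes. For 2 neck cell genes the summed level was 7494 RPKM in HFD and 8500 in control, and both genes turned higher in HFD when scaled to protein-coding genes. The 5 pancreatic acinar genes were all listed at 0 in HFD and summed to 420 RPKM in control. Over all 16037 genes, 16.2% were listed in control only. In bulk RNA, fewer cells of a type and less RNA per cell cannot be told apart, and the part of chief cell RNA in the level of Chia1 was not tested.

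**Figure D3:**
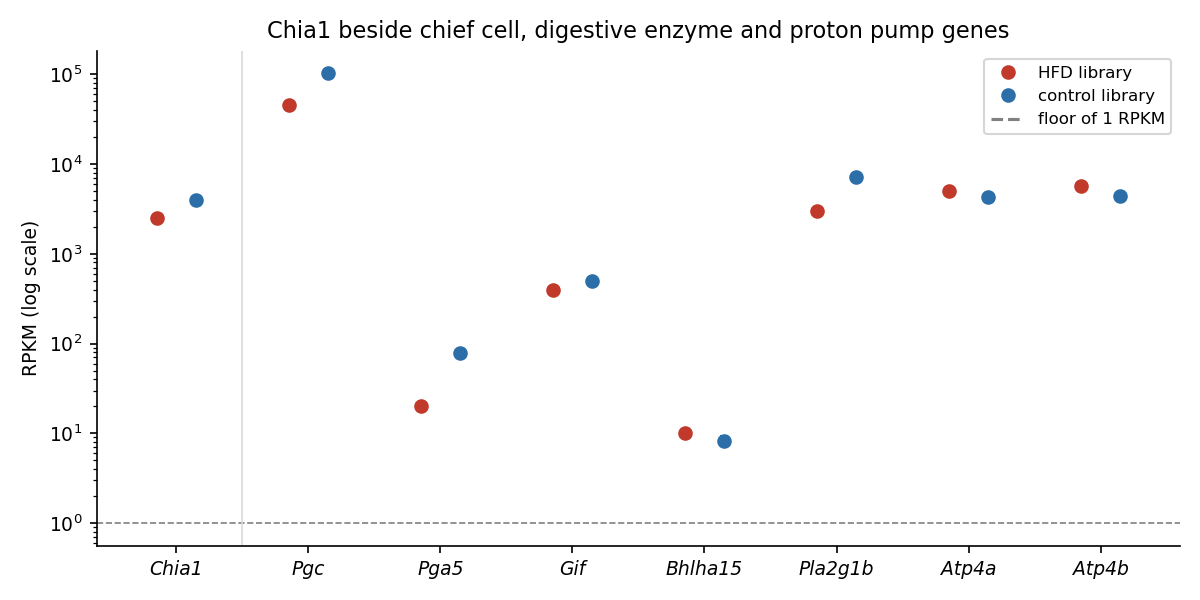
RPKM on a log axis of Chia1, the chief cell genes Pgc, Pga5, Gif and Bhlha15, the phospholipase gene Pla2g1b and the proton pump genes Atp4a and Atp4b in HFD cells (red, left point) and control cells (blue, right point); bars are Poisson 95% intervals, mostly smaller than the points. Chia1, Pgc, Pga5, Gif and Pla2g1b are lower in HFD cells, and Bhlha15, Atp4a and Atp4b are higher, the last 3 turning lower with the 20 most abundant genes left out of the scaling total.

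Other secreted enzymes and defence proteins of the stomach gave a wider context. Of the 11 genes of that list, which holds both pepsinogen genes above, 7 were listed in either library, 2 of them over 2-fold higher (Cym, Ltf) and 5 lower by that much (Pgc, Pga5, Pla2g1b, Lyz2, Ang), beside 12.5% higher and 23.9% lower over all genes. Cym, Lyz2 and Ang were each listed at 0 in the other library, where any level above 1 RPKM exceeds 2-fold on the log2(RPKM + 1) scale. Pla2g1b, a secreted phospholipase, stood at 2995 RPKM in HFD cells and 7087 RPKM in control cells, a ratio of 0.423. Cym, a milk-clotting protease gene, was listed at 4.35 RPKM in HFD cells and at 0 in control cells. Ltf, lactoferrin, stood at 3.44 and 1.05 RPKM. Lyz2 and Ang were listed at 0 in HFD, while the control held 1.35 and 1.80 RPKM, and Lyz1, Lipf, Reg3b and Reg3g at 0 in both. By distance in log2 RPKM over the 2 libraries, the protein-coding genes nearest to Chia1 were Tff1 (0.46; 2960 RPKM in HFD and 3003 in control), Lars2 (0.55; 1784 and 3419 RPKM) and Psca (0.58; 2730 and 2675 RPKM).

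Chil4 was the second most abundant member in HFD cells and was listed at 0 in control cells. Its close copy Chil3 was listed at 0 in both. The promoters of both genes and of Chia1 are shown because the copies share most of their sequence while only Chil4 was listed. Each runs from 250 bases before to 50 bases after the RefSeq start (GRCm38.p6), 5′ to 3′ on the gene's strand, and the capitals mark matches of the motifs named below.
Chia1: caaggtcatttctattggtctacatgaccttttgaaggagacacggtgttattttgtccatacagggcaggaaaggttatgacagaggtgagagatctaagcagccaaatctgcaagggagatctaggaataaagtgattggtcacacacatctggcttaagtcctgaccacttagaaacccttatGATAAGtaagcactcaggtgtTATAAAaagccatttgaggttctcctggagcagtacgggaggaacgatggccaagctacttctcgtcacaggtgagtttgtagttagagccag
Chil3: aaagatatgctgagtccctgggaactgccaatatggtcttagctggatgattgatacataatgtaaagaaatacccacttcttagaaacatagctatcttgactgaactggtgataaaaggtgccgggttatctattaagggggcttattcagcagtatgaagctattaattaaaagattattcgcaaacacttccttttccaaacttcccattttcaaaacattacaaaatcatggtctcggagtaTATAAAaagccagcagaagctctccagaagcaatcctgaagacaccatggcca
Chil4: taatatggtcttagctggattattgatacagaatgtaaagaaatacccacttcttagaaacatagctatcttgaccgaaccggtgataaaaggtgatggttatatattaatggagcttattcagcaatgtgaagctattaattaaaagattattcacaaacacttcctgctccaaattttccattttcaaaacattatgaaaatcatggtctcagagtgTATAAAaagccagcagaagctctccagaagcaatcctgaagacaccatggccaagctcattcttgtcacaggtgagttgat
The windows lie at chr3:106113132-106113431 on the plus strand for Chia1, chr3:106167515-106167814 on the minus strand for Chil3 and chr3:106219430-106219729 on the minus strand for Chil4. The Chil3 and Chil4 windows were identical at 251 of 271 aligned positions (92.6%).

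Short motifs were searched on both strands of 1 window for each of the 10 family genes. They were the core promoter box TATAAA, the zinc-finger factor site GATAAG, the E-box CAGCTG and a STAT6-type palindrome with a spacer of 4 bases of any kind. The TATAAA box was found in Chia1, Chil3, Chil4 and Chil6, against 13.6% of all 32851 promoters of that length. In Chil4 it began 31 bases before the RefSeq start and in Chia1 43 bases before it. In Chil3 it began 3 bases before its own RefSeq start. The GENCODE spans given here start further upstream than RefSeq for Chil4 and Chia1, and at the same base for Chil3. These distances thus depend on the annotation, and no difference between the promoters is read from them. The zinc-finger factor site was found in Chia1, Chil5 and Chil6 (7.44% of all promoters), the E-box in Ovgp1 (16.3%) and the STAT6-type palindrome in none of the 10 (6.95%). Only these letters in these windows were searched.

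Chil4 (ENSMUSG00000063779, chr3:106201490-106219507, minus strand, 11 exon blocks) stood at 13.5 RPKM (12.6 to 14.3) in HFD cells, from about 967 estimated reads, and was listed at 0 in control cells. The floor of 1 RPKM corresponded to 71.8 reads of this gene in HFD cells and 27.7 in control cells. Chil4 was thus listed in HFD cells alone, well above the floor. No fold is given against the listed 0. Of 2488 protein-coding genes within 1.5-fold of 13.5 RPKM in HFD cells, 5, including Chil4, were listed at 0 in control cells (0.201%). The members were chosen with these levels known, so this share and the like shares given for other members are descriptions and test nothing. With the length of its longest complete coding transcript in place of all annotated exons, the value would rest on 528 reads.

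Sequence shared between genes can make a read hard to place. The coding sequences of Chil3 and Chil4 were identical at 1139 of 1194 aligned bases (95.4%), while Chia1 was identical to Chil3 at 76.0%, to Chil4 at 75.6% and to Chil5 at 76.7% of aligned bases. Of all stretches of 50 bases in the annotated transcripts, 304 of 2763 in Chil4 (11.0%) also occurred in a transcript of another gene, 275 of them in Chil3. For Chil3 the share was 26.9% and for Chia1 0 of 1949. Chil3 (ENSMUSG00000040809, chr3:106147554-106167564, minus strand) would have needed 41.6 reads in HFD cells and 16.1 in control cells to reach the floor. How the authors counted reads that fit both genes is not stated, so the values of Chil3 and Chil4 are uncertain. The shares of exact stretches do not give the size of that uncertainty.

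Markers of the immune cells known for these lectins were mostly listed at 0, which need not mean that they were absent. Of 10 macrophage markers, 4 were listed in HFD cells and 3 in control cells, with a summed level of 17.5 RPKM in HFD cells and 3.78 RPKM in control cells. C1qb, a complement subunit, stood at 8.91 RPKM in HFD cells and 1.01 RPKM in control cells, and Cd68 at 4.26 and 1.42 RPKM. C1qa and Csf1r, at 2.35 and 2.03 RPKM in HFD cells, were listed at 0 in control cells, and Lyz2 was listed in control cells only. The defining markers Adgre1, Cd163, Mrc1, Itgam and Fcgr1 were listed at 0 in both. All 9 neutrophil markers were listed at 0 in both libraries, and so were all 6 lymphocyte markers. Of 8 eosinophil and mast cell markers, Mcpt2 was listed in HFD cells (3.35 RPKM) and Siglecf in control cells (3.78 RPKM), and the other 6 in neither. Over all 16037 genes, 6.19% were listed in HFD only and 16.2% in control only, and nothing is read from the numbers of markers listed. Of 4 tuft cell markers, the epithelial source of type 2 signals, 3 were listed, with a summed level of 8.11 RPKM in HFD cells and 30.7 RPKM in control cells. C1qb and Cd68, the macrophage genes with a level in both, were higher in HFD cells, as was Chil4, and their part in its level was not tested. In control cells C1qb rested on about 10.8 estimated reads and Cd68 on 17.6, where the floor was 10.7 and 12.4 reads. Their ratios were thus loosely set, at 4.76 to 17.6 for C1qb and 1.79 to 5.10 for Cd68.

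The type 2 immune genes named with Chil3 and Chil4 in other settings were mostly not listed. Of 16 such genes, 11 were listed at 0 in both libraries, among them Il4, Il13, Il5, Arg1, Retnla and Retnlb. None of the 5 listed passed 2-fold upward on the log2(RPKM + 1) scale and 1, Ccl11, passed it downward. Over all 16037 genes the shares were 12.5% higher and 23.9% lower, so nothing is read from these numbers. Stat6, the transcription factor of interleukin 4 and 13 signals, stood at 22.9 RPKM in HFD cells and 26.2 RPKM in control cells, a ratio of 0.873 that passes 1 when scaled to protein-coding genes. The receptor genes Il4ra and Il13ra1 stood at 7.03 and 6.49 RPKM in HFD, and at 10.0 and 9.03 RPKM in control. Il33, an epithelial alarm cytokine gene, stood at 7.74 RPKM in HFD cells and 3.74 RPKM in control cells, a plain ratio of 2.07 (1.68 to 2.58) that comes to 0.88 on the log2(RPKM + 1) scale. Ccl11 was listed at 0 in HFD and at 1.30 RPKM in control.

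Receptors and partners of chitinase-like proteins and genes of chitin sensing were also sparse, with 4 of 12 listed. Tmem219, which encodes a co-receptor for the CHI3L1 protein, stood at 9.33 RPKM in HFD cells and 6.33 RPKM in control cells, a ratio of 1.48 (1.22 to 1.78) that falls just below 1 with the 20 most abundant genes left out of the scaling total. Cd44, a cell surface receptor for hyaluronan, stood at 1.88 and 2.34 RPKM. Tlr2 was listed at 3.21 RPKM in HFD cells and at 0 in control cells, and Lgals3, a galectin, at 0 in HFD cells and 4.07 RPKM in control cells. Stab1, which encodes the stabilin named above, and the lectin receptor genes Clec7a and Mrc1 were listed at 0 in both. Tlr2 and Lgals3 were the genes past 2-fold, each listed in a single library. Over all genes 12.5% were over 2-fold higher and 23.9% lower, and 6.19% were listed in HFD only and 16.2% in control only.

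Chit1 (ENSMUSG00000026450, chr1:134111242-134151540, plus strand), the chitotriosidase gene, was listed at 1.89 RPKM (1.51 to 2.33) in HFD cells, from about 87.5 estimated reads, and at 0 in control cells. The level was close to the floor. Of 1728 protein-coding genes within 1.5-fold of that level in HFD cells, 16.7% were listed at 0 in control cells. Its interval overlapped that of Chil5, at 2.39 RPKM (1.93 to 2.94) in HFD cells, so their order is not resolved. Chil5 stood at 2.26 RPKM (1.56 to 3.17) in control cells, a ratio of 1.06 (0.697 to 1.60) that spans 1. Chil1 (ENSMUSG00000064246, chr1:134182176-134190181, plus strand), which lies 30635 bases beyond Chit1, was listed at 0 in both libraries, where the floor was 71.5 reads in HFD cells and 27.6 in control cells. Also listed at 0 was Mybph on its other side in HFD cells. Mybph stood at 1.06 RPKM in control cells. Btg2, on the other side of Chit1, stood at 62.3 RPKM in HFD cells and 41.6 RPKM in control cells.

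The chromosome 3 cluster, from Ovgp1 to Chil6, held 6 family genes within 432 kb (chr3:105973711-106406182). Chia1 was the abundant gene of the cluster in both libraries. Its neighbours Chil5, 80414 bases before it, and Chil3, 15433 bases beyond it, were at 2.39 RPKM and listed at 0 in HFD cells, and at 2.26 RPKM and listed at 0 in control cells. Pifo, between Ovgp1 and Chil5, was listed at 0 in both. The processed pseudogene Gm4540 was listed at 0 in HFD cells and at 6.41 RPKM in control cells. Outside the cluster, Wdr77 stood at 3.66 RPKM in HFD cells and 4.44 RPKM in control cells, and Dennd2d at 13.5 and 11.2 RPKM.

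**Figure D4:**
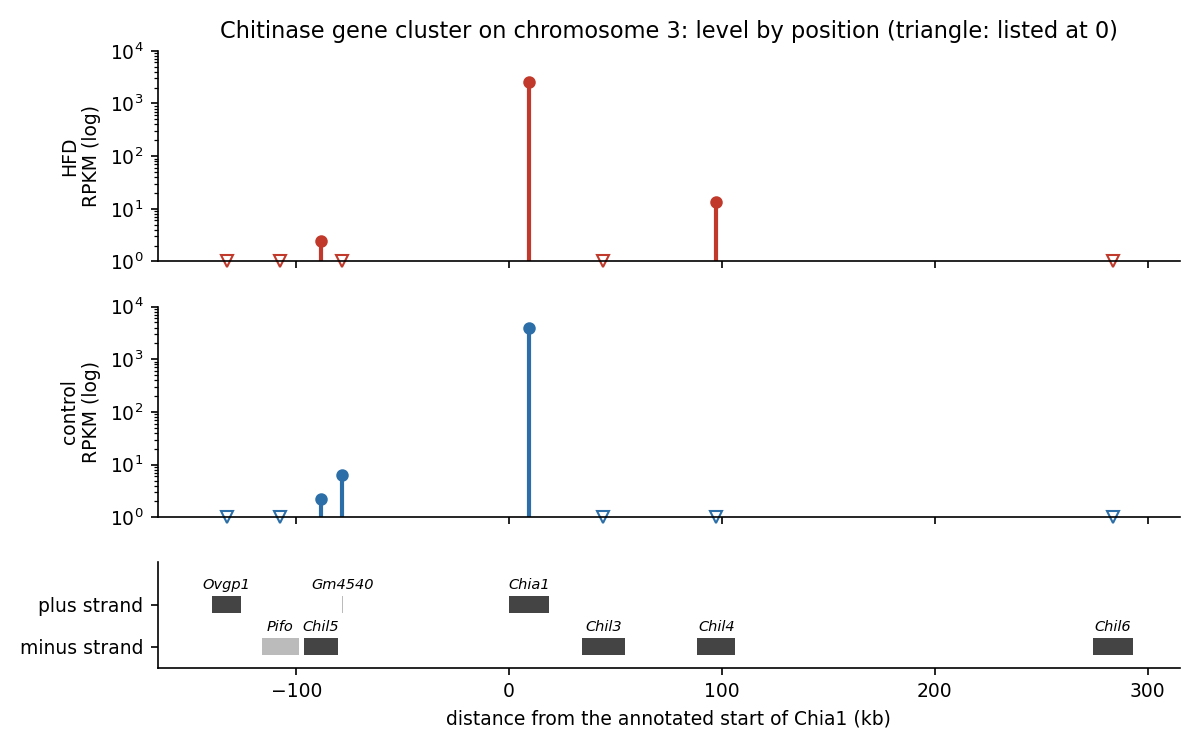
Level of each listed gene (RPKM, log axis) at its midpoint along the chromosome 3 cluster in HFD cells (top) and control cells (middle), with open triangles for genes listed at 0, above the gene spans by strand (bottom; dark, family genes; grey, others). The horizontal axis is the distance in kb from the annotated start of Chia1; the tall line is Chia1 in both libraries, and the line at Chil4 is present in HFD cells only.

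Chid1 (ENSMUSG00000025512, chr7:141493136-141539857, minus strand, 19 exon blocks) stood at 5.64 RPKM (5.37 to 5.93) in HFD cells and 7.66 RPKM (7.14 to 8.20) in control cells, a ratio of 0.737 (0.676 to 0.803). With the length of its longest complete coding transcript the interval was 0.642 to 0.846. Of the protein-coding genes listed in both libraries, 29.9% had a ratio below that of Chid1. Chia1 stood 449 times above Chid1 in HFD cells and 517 times above it in control cells. With the 20 most abundant genes left out of the scaling total, Chid1 was 2.07 times lower in HFD cells, and scaled to the total of protein-coding genes 1.11 times lower. Its annotated span overlaps that of Tspan4, on the opposite strand, by 292 bases. Whether reads were counted by strand is not stated. Tspan4 stood at 2.34 RPKM in HFD cells and 6.13 RPKM in control cells, and Ap2a2, on the other side, at 13.5 and 19.8 RPKM. The genes nearest to Chid1 in level over the 2 libraries were Plscr3 (distance 0.017; 5.67 RPKM in HFD and 7.74 in control), Endov (0.029; 5.59 and 7.80 RPKM) and Sp2 (0.045; 5.48 and 7.73 RPKM).

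Ctbs (ENSMUSG00000028189, chr3:146449795-146465849, plus strand), the lysosomal chitobiase gene, was listed at 0 in HFD cells and at 1.53 RPKM (1.23 to 1.88) in control cells, from about 90.9 estimated reads. With the length of the gene's longest complete coding transcript the value would rest on 43.4 reads, and the interval would be wider. This level was near the floor. Of 1790 protein-coding genes within 1.5-fold of it in control cells, 47.6% were listed at 0 in HFD cells. Spata1, which overlaps it by 8654 bases on the opposite strand, was listed at 0 in both libraries, and Ssx2ip, before it, stood at 6.61 RPKM in HFD cells and 11.1 RPKM in control cells.

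Ctbs acts among other enzymes that take glycoproteins apart, lysosomal except for Engase, which is cytosolic. Of 10 such genes, 7 were lower in HFD cells as deposited, and the median of all genes was lower too. All 10 were listed in both libraries, none over 2-fold higher and 3 lower by that much (Ctsa, Engase and Glb1). Over all 16037 genes the share was 12.5% higher and 23.9% lower, which includes genes listed in a single library. Of the 12439 genes above the floor in both libraries, 1008 were over 2-fold higher and 1227 lower. The median difference in log2(RPKM + 1) was -0.53, beside -0.13 for all genes and -0.02 for those 12439. Ctsa, the protective protein of neuraminidase and galactosidase, stood at 4.33 RPKM in HFD cells and 18.7 RPKM in control cells, a ratio of 0.232 (0.207 to 0.259). Engase, which cuts N-glycans, stood at 3.31 and 11.4 RPKM, a ratio of 0.290 (0.255 to 0.328). Hexa, the alpha subunit of hexosaminidase, stood at 24.6 RPKM in HFD cells and 45.2 RPKM in control cells, a ratio of 0.544. Neu1, Manba and Aga went the other way by less than 2-fold. Neu1, the lysosomal neuraminidase, stood at 44.2 and 33.5 RPKM, a ratio of 1.32 (1.24 to 1.41), and Manba (a beta-mannosidase) and Aga (which cuts the sugar from asparagine) had ratios of 1.63 and 1.42. Neu1 and Aga turned lower with the 20 most abundant genes left out of the scaling total. Glb1, a beta-galactosidase, stood at 9.05 RPKM in HFD cells and 21.0 RPKM in control cells, and the alpha-mannosidase gene Man2b1 at 17.8 and 32.2 RPKM. Fuca1, a fucosidase, stood at 19.8 RPKM in HFD cells and 23.6 RPKM in control cells. Man2b2, another alpha-mannosidase gene, stood at 26.2 RPKM in HFD cells and 30.8 RPKM in control cells, a ratio of 0.849. Fuca1 and Man2b2 turned higher when scaled to protein-coding genes.

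N-acetylglucosamine, the unit of chitin and the sugar trimmed by the Ctbs enzyme, is recycled by a small set of enzymes. The 8 genes read here hold such enzymes and Nagpa, whose different role is given below. Of the 8, 7 were listed. In log2(RPKM + 1), Gnpda2 was over 2-fold higher, against a listed 0, and Nagpa over 2-fold lower, beside 12.5% higher and 23.9% lower over all genes. The median difference was -0.68, beside -0.13 over all genes. Nagk, the kinase that starts salvage, stood at 6.13 RPKM in HFD cells and 9.58 RPKM in control cells, a ratio of 0.640 (0.567 to 0.721). Uap1, which makes the nucleotide sugar, stood at 19.2 and 31.4 RPKM, a ratio of 0.610. Nagpa, which uncovers the mannose phosphate signal of lysosomal enzymes, stood at 2.85 and 9.11 RPKM, a ratio of 0.313. Pgm3, a mutase on the route to the nucleotide sugar, had a ratio of 0.425 (2.46 against 5.79 RPKM). Gnpda1, a glucosamine phosphate deaminase, stood at 6.38 RPKM in HFD cells and 3.14 RPKM in control cells, a ratio of 2.03 (1.69 to 2.47), and Gnpda2 was listed at 2.53 RPKM in HFD cells and at 0 in control cells. Amdhd2, which removes the acetyl group, stood at 2.11 and 3.99 RPKM. Both deaminase genes were thus higher in HFD and the other 5 listed genes lower.

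**Figure D5:**
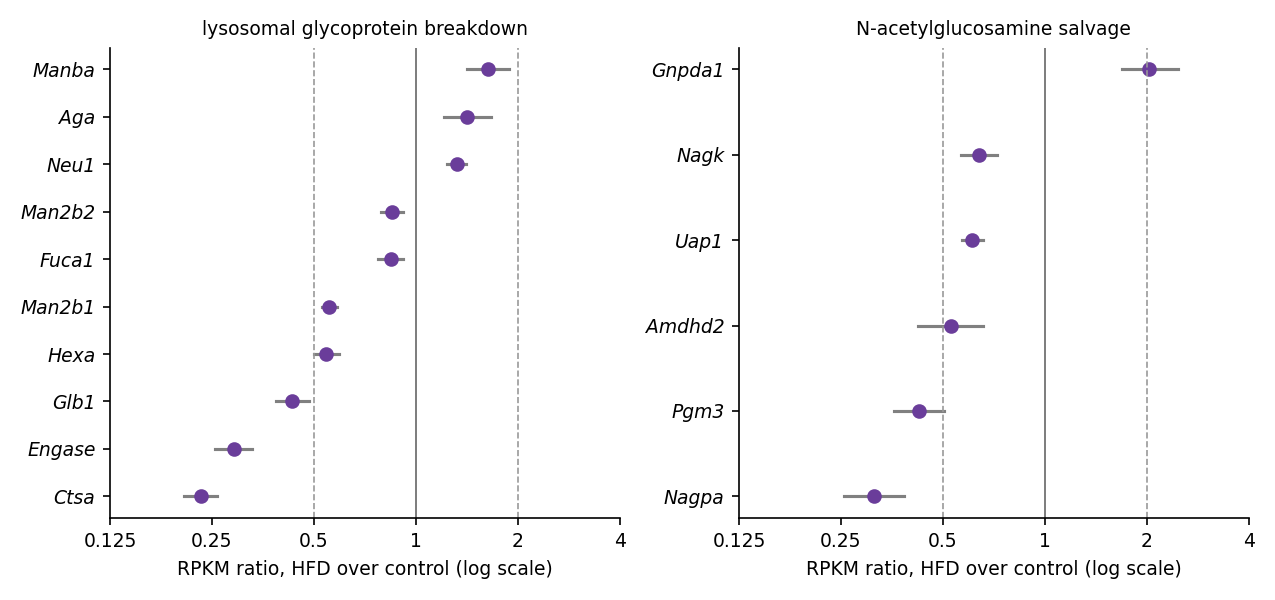
Ratio of RPKM, HFD over control, on a log axis for the genes of lysosomal glycoprotein breakdown (left) and of N-acetylglucosamine salvage with Nagpa (right) listed in both libraries; bars are conditional binomial 95% intervals for counting error, the solid line is equality and dashed lines mark 2-fold. Ctsa, Engase, Glb1, Nagpa and Pgm3 lie left of 0.5, and Gnpda1 lies at 2.03.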

How the data were processed

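Total RNA of sorted parietal cells was depleted of ribosomal RNA and made into Ion Total RNA-Seq libraries, per the labels' protocols. Bedtools 2.25.0 and the build mm10 are named per the submitters' processing notes; no source used here gives the aligner, the counting rule or the annotation release. The deposited values are log2 of RPKM without a pseudocount, and no value lies between 0 and 1 RPKM, so lower genes stand as 0; this was read from the values (largest 18.2, smallest listed 1.0006 RPKM). Depth was estimated from the step between values of genes with 1 exon and 1 transcript, where 49.7% of 189 values in HFD and 35.8% of 724 in control were whole within 0.005 of a step at about 12 steps or fewer. No count test was used on these normalized values, and 1 library per diet allows no test of diet. The labels name no molecular identifiers, so PCR copies may have been counted apart.

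Symbols, positions and exon lengths came from GENCODE M21 on GRCm38, to which 36308 identifiers matched and 1779 did not. Promoters came from RefSeq (GRCm38.p6), and all 10 family genes matched. Coding sequences were aligned with Biopython 1.88; other steps used Python 3.11.15, NumPy 2.4.6, pandas 2.3.3 and SciPy 1.17.1. The difference was log2(RPKM + 1) in HFD minus control, with listed zeros as 0. Calculations were tested on simulated data. The members and lists were chosen with earlier results of these data known. Named were all family genes, the protein-coding gene on each side, the 3 genes nearest in level, and from each list up to 4 of the highest mean level with the highest and lowest ratio; other names were chosen after their values were seen. Some genes of the lists are not reported here.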

Additional observations from a re-analysis of the deposited data

How the results depend on the processing

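Chia1 and Chid1 kept their direction under all 6 alternatives tried for them, at -1.25 to -0.35 and -0.88 to -0.13 on the log2 scale. Only the scalings could have reversed it. The pseudocounts and zeros entered as 1 RPKM cannot change the direction of a gene listed in both libraries. Chia1 passed 2-fold only when the 20 most abundant genes were left out of the scaling. The family median of -0.38 was -0.43 with a pseudocount of 0.1 RPKM, -0.25 with 5 RPKM, -0.88 with the 20 most abundant genes left out of the scaling, -0.13 scaled to protein-coding genes, -0.35 with their median set to 0, -0.51 over the 2 members above the floor in both libraries, 0 over all 7 members and -0.34 with zeros entered as 1 RPKM. Members over 2-fold higher numbered 1 with a pseudocount of 5 RPKM, at a minimum of 5 RPKM and with zeros entered as 1 RPKM, and 0 above the floor in both. Members over 2-fold lower numbered 0 under those 4 settings and 2 with the 20 most abundant genes left out of the scaling. Over all genes the higher and lower numbers were 727 and 787 with a pseudocount of 5 RPKM, 1092 and 1393 at a minimum of 5 RPKM, 1008 and 1227 above the floor in both, 1305 and 1878 with zeros entered as 1 RPKM, and 1102 higher with those 20 genes left out of the scaling. The alternatives on zeros and minimums change which genes can pass; the cause of the shifts under scaling was not tested. The use of transcript length for the intervals was added after seeing the data. No paired analysis was possible because each diet has 1 library. Levels near 1 RPKM, as for Chit1, Ctbs and Chil5, are limited by the floor and the depth.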
